A study of Mus musculus with 6 samples.

Results

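The genes described here are 8 listed cardiac ion channel genes out of 23337 genes in the table: the pacemaker channel genes Hcn4 and Hcn2 and the potassium channel genes Kcnj2, Kcnd2, Kcnd3, Kcnip2, Kcnq1 and Kcnh2. They were taken by symbol, all 8 were found, and no sodium channel gene was on the list, so sodium channel genes appear below only as a comparison list. Both groups were wildtype mice of mixed background injected at P1 with AAV9 at 5e8 vg per g, and cardiomyocytes (CMs) were collected at P14. SRF-OE mice received AAV9-cTNT-SRF-2A-GFP, which carries serum response factor (SRF) and GFP, and GFP mice received AAV9-cTNT-GFP. The cardiac troponin T promoter drove both vectors, the dose transduced only a part of the CMs, and the GFP+ cells were sorted before RNA-seq.

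The labels list 3 libraries per group, but the column headed SRF-OE replicate 1 holds gene lengths, with 0 zeros, so 2 SRF-OE and 3 GFP libraries have counts, with totals from 14137433 to 23159631 reads. The labels do not say whether the libraries of a group came from separate hearts, so p-values measure the spread between these libraries, which may be in part technical. Srf itself was at 360 and 748 CPM (library-size-scaled counts, with edgeR's TMM factors) in SRF-OE replicates 2 and 3. It was at 67.3 and 85.1 CPM in GFP replicates 2 and 3, but at 338 CPM in the library labelled GFP replicate 1, near the lower SRF-OE value. Every comparison is therefore given for the 5 libraries as labelled and for the 4 libraries without GFP replicate 1. Srf had a log2 fold change of 1.76 (SE 0.71, adjusted p = 0.357, edgeR) over 5 libraries and 2.87 (SE 0.37, adjusted p = 0.0442, edgeR) over 4. Xist, a transcript of the female X chromosome, was at 147 CPM in SRF-OE replicate 2, at 88.8 CPM in GFP replicate 2 and at no more than 0.743 CPM in the other libraries. Each group therefore held 1 library from female tissue, and the 3 others had the Y-linked gene Ddx3y at 94.8 to 106 CPM. Replicates 2 and 3 of each group thus came from tissue of different sex, and their spread includes that difference. Whether GFP replicates 1 and 3 came from separate hearts is not known.

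HCN channels open when the membrane is hyperpolarized and pass the inward pacemaker current, which is prominent in the sinoatrial node and falls in working ventricular CMs as the heart matures. The potassium channels shape repolarization: Kv4 channels carry the fast transient outward current, Kcnq1 and Kcnh2 encode pores of the slow and rapid delayed rectifiers, and the inward rectifier holds the resting potential. In the adult mouse ventricle, the transient outward current and the inward rectifier are large, and the delayed rectifiers contribute little.

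The bases just upstream of the annotated starts are shown because SRF binds DNA at CArG boxes. The RefSeq windows used here (GRCm38.p6) matched 7 of the 8 genes, all except Kcnq1, and the 250 bases before each start were searched on both strands. A CArG box was found in 0 of the 7 windows and in 1.47% of all 32851 windows of that length, and a MEF2 site in 0 and in 2.92%. The TATA box TATAAA was found in 0 of 7 and in 12.37% of all windows, and the GC box GGGCGG in 6 of 7 (all except Kcnd3) and in 32.74%. The GC content of the 7 windows was 62.8% to 73.6%, against a median of 52.4% over all windows. The highest value was that of Kcnh2, whose window (chr5:24329592-24329841, -) lies inside the gene span given below, before an internal start. For Hcn4, Kcnd2 and Kcnd3 the windows end some way before the gene starts given below, which come from another annotation. These are matches of letters in short windows, and more distant sequence was not searched. Capitals mark GGGCGG on either strand, in the windows of the 5 genes with the largest fold changes over 5 libraries (below), at chr9:58822699-58822948 (+), chr11:111065914-111066163 (+), chr19:45816064-45816313 (-), chr6:21215096-21215345 (+) and, with no such match, chr3:105451640-105451889 (+):
Hcn4: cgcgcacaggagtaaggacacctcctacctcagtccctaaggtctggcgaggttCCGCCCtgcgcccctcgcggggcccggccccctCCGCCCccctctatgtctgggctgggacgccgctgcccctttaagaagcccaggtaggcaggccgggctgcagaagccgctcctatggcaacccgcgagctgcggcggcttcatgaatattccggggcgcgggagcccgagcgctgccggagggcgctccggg
Kcnj2: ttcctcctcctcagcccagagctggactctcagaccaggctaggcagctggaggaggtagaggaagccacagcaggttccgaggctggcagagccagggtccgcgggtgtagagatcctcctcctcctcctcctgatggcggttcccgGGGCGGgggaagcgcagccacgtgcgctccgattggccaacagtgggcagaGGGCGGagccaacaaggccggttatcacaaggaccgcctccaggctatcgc
Kcnip2: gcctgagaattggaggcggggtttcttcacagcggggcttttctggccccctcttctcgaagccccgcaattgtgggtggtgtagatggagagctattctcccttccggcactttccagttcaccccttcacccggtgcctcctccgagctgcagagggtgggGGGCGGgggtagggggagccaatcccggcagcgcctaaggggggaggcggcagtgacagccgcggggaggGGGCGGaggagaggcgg
Kcnd2: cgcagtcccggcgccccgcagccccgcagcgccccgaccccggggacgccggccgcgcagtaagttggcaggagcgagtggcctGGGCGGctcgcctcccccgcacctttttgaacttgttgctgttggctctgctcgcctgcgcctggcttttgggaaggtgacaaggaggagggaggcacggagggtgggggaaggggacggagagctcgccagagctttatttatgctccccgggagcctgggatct
Kcnd3: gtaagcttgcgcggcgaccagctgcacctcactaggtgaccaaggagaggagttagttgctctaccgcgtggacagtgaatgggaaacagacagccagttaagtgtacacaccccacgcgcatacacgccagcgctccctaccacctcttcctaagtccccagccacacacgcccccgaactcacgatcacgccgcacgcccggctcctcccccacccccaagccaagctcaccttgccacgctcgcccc
For contrast, 60 bases upstream of Srf at chr17:46556200-46556259 (-) hold 2 CArG boxes, here in capitals:
Srf: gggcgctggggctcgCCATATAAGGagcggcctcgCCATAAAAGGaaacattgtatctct

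All 8 channel genes were lower in SRF-OE than in GFP, by 1.37-fold (Kcnq1) to 2.71-fold (Hcn4) over 5 libraries and by 1.51-fold to 3.03-fold over 4, and how many passed the adjusted cutoff depended on the fit. In edgeR with TMM scaling and no covariate, 0 passed over 5 libraries and Kcnj2 passed over 4. Over 5 libraries the adjusted p was below 0.05 for 0 of 8 genes by edgeR, as for 0 of all 13754 genes tested (0%). The unadjusted p was below 0.05 for 6 of 8, all lower, where 7.59% of all genes were lower at that level. DESeq2 on the 5 libraries gave none of the 8 genes an adjusted p, and its unadjusted p was below 0.05 for 8 of 8, where 5.75% of its 21566 genes were lower at that level. Without GFP replicate 1, 1 of 8 passed the adjusted cutoff, where 0.970% of 13397 genes were lower and 1.98% higher, and 8 of 8 had an unadjusted p below 0.05, where 14.0% of all genes were lower. In those 4 libraries DESeq2 put 8 of 8 past the adjusted cutoff, where 3.89% of its 21407 genes were lower. The median log2 fold change of the 8 genes was -0.96 over 5 libraries and -1.15 over 4, against 0.030 and 0.035 over all genes tested. The sign was shared by 46.7% and 46.8% of all genes tested.

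Both SRF-OE libraries were below all GFP libraries for 6 of 8 genes, a pattern found in 17.3% of all genes, and below GFP replicates 2 and 3 for 8 of 8, found in 30.2%. GFP replicate 1 was the lowest GFP library for 8 of 8 genes and lay between the SRF-OE libraries and the other GFP libraries for 6. SRF-OE replicate 3 was the lowest of the 5 libraries for 7 of 8 genes, the exception being Hcn2. SRF-OE replicate 2 was below GFP replicate 2, the other library with Xist, for 8 of 8 genes, and SRF-OE replicate 3 was below both GFP libraries with Ddx3y for 8 of 8. The shares of all genes with these orders were not counted, so whether the orders are particular to the channel genes is not known. GFP replicate 1 also lay between for the CM genes Actn2, Ryr2, Tnni3 and Tnnt2, but not for Myh6, Myl2 and Ttn. With sex by Xist as a term in the edgeR fit of the 5 libraries, an alternative chosen after seeing the data, all 8 log2 fold changes were negative, from -1.56 (Hcn4) to -0.52 (Kcnq1). None of the 8 passed the adjusted cutoff there (0% of all genes were lower), and 8 of 8 had an unadjusted p below 0.05, where 8.30% of all genes were lower. Within the 3 libraries without Xist, 1 SRF-OE against 2 GFP, they ran from -1.98 (Hcn4) to -0.53 (Kcnq1), 0 passed the adjusted cutoff and 5 had an unadjusted p below 0.05, where 2.41% of all genes were lower.

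**Figure D1:**
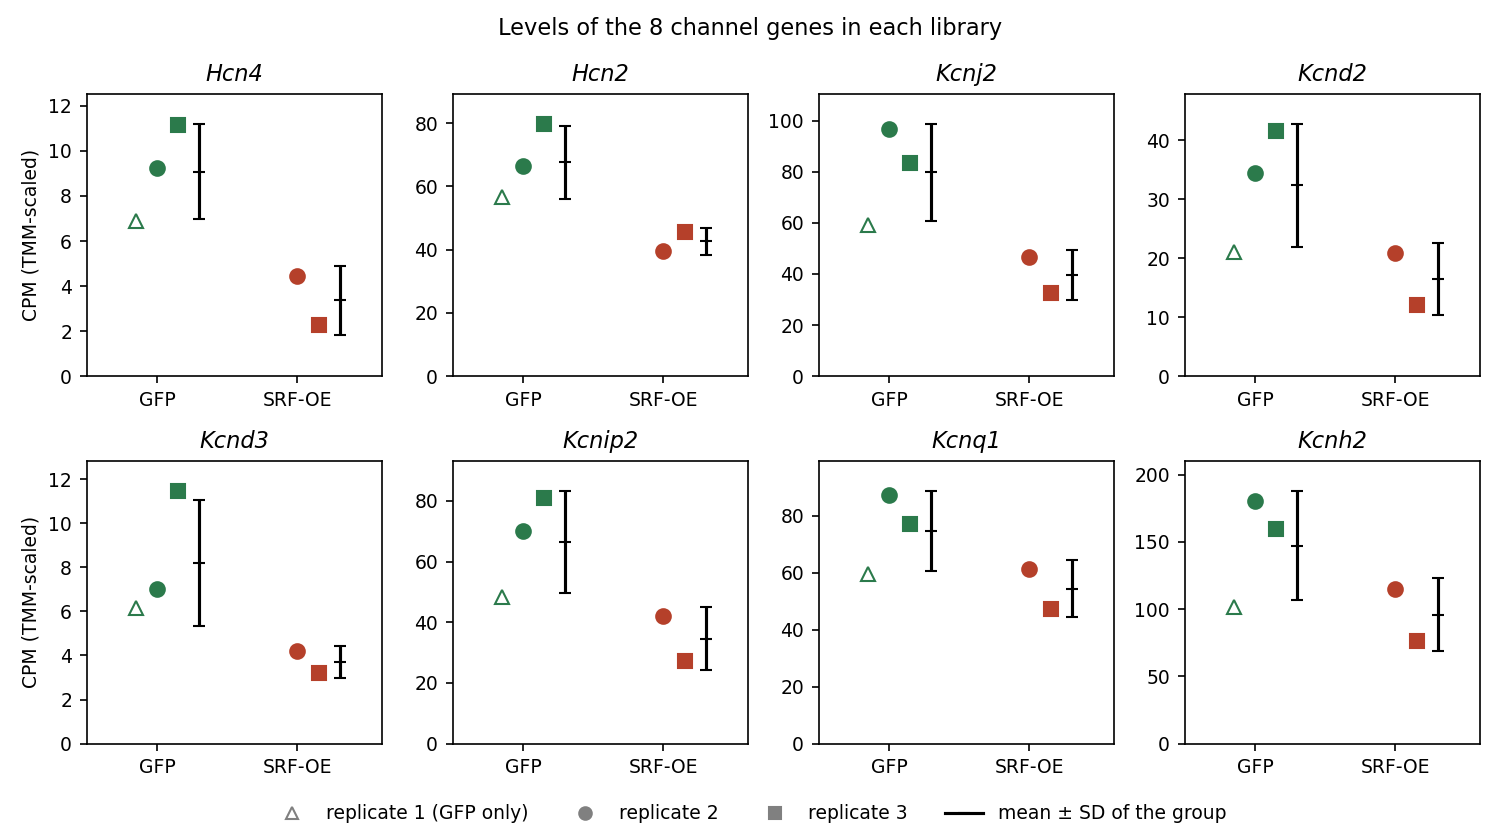
Level of each channel gene in TMM-scaled CPM (vertical axes, each from 0) in the 3 GFP and 2 SRF-OE libraries, with the mean ± SD of each group. GFP replicate 1, the open triangle, is the lowest GFP library in all 8 panels, and only for Kcnq1 and Kcnh2 does an SRF-OE library reach it.

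Hcn4 encodes the main pacemaker channel of the sinoatrial node. The gene spans 58823412 to 58863175 (+) on chromosome 9 (GRCm38, as for all positions below). It stood at 4.45 and 2.27 CPM in SRF-OE replicates 2 and 3, and 6.89, 9.22 and 11.1 CPM in GFP replicates 1, 2 and 3. The groups did not overlap, and the lowest value rested on 52 reads, in SRF-OE replicate 3. The means were 3.36 ± 1.54 CPM (SD, n = 2) and 9.08 ± 2.12 CPM (SD, n = 3). The log2 fold change of -1.44 (SE 0.37, adjusted p = 0.353, edgeR) was the largest of the 8 genes in size, and only 0.342% of all genes tested ranked at or below it. Without GFP replicate 1 it was -1.60 (SE 0.37, adjusted p = 0.0648, edgeR).

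Hcn2, the HCN gene most often found in working myocardium, lies on chromosome 10 from 79716634 to 79736108 (+). It was at 39.6 and 45.7 CPM in SRF-OE, and at 56.6, 66.4 and 79.8 CPM in GFP. Here too every SRF-OE library was below every GFP library, and SRF-OE replicate 3 was the higher of its group. The means were 42.6 ± 4.30 CPM (SD, n = 2) and 67.6 ± 11.7 CPM (SD, n = 3), with a log2 fold change of -0.66 (SE 0.18, adjusted p = 0.353, edgeR). Without GFP replicate 1 it was -0.77 (SE 0.16, adjusted p = 0.0565, edgeR). Per gene length, the ratio of Hcn2 to Hcn4 was 10.6 and 23.9 in SRF-OE and 9.76, 8.56 and 8.52 in GFP. Both SRF-OE ratios were above all GFP ratios, and the difference between the fold changes of both genes was not tested.

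Kcnj2 encodes the Kir2.1 pore of the inward rectifier. It lies on chromosome 11 from 111066164 to 111076821 (+). Its level was 46.7 and 32.7 CPM in SRF-OE replicates 2 and 3, and 59.4, 96.8 and 83.4 CPM in GFP replicates 1 to 3. The groups did not overlap, and GFP replicate 1 was nearer to SRF-OE replicate 2 than to the other GFP libraries. The means were 39.7 ± 9.90 CPM (SD, n = 2) and 79.8 ± 19.0 CPM (SD, n = 3), and the log2 fold change was -1.01 (SE 0.26, adjusted p = 0.353, edgeR). Without GFP replicate 1, Kcnj2 fell by 1.18 on the log2 scale (SE 0.20, adjusted p = 0.0496, edgeR), the only one of the 8 genes past the cutoff in that fit. That value sits at the cutoff, and with upper quartile scaling 0 of the 8 genes passed.

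The transient outward current genes gave a log2 fold change near -1 each, and their GFP replicate 1 level was just above the higher SRF-OE library for Kcnd2 and further above it for Kcnd3 and Kcnip2. Kcnd2 and Kcnd3 encode the Kv4.2 and Kv4.3 pores, and Kcnip2 encodes KChIP2, the accessory subunit that brings them to the membrane. Kcnd2 (chromosome 6, 21215503 to 21729805, +) was at 20.8 and 12.1 CPM in SRF-OE and at 21.0, 34.5 and 41.5 CPM in GFP. SRF-OE replicate 2 and GFP replicate 1 were nearly level, so the groups were separated by only that gap. Its means were 16.5 ± 6.15 CPM (SD, n = 2) and 32.3 ± 10.4 CPM (SD, n = 3), and the log2 fold change was -0.97 (SE 0.35, adjusted p = 0.354, edgeR) over 5 libraries and -1.20 (SE 0.27, adjusted p = 0.0645, edgeR) over 4.

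Kcnd3 (chromosome 3, 105452330 to 105674002, +) was at 4.22 and 3.19 CPM in SRF-OE and at 6.13, 7.02 and 11.4 CPM in GFP. The groups did not overlap, though both SRF-OE values rested on 73 reads. The means were 3.71 ± 0.727 CPM (SD, n = 2) and 8.20 ± 2.85 CPM (SD, n = 3), and the log2 fold change was -1.14 (SE 0.35, adjusted p = 0.353, edgeR), or -1.31 (SE 0.33, adjusted p = 0.0763, edgeR) without GFP replicate 1. The antisense gene Kcnd3os shares 165 bp of exon with it, 1.7% of its exons, and is not a row of the table.

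Kcnip2 (chromosome 19, 45791839 to 45816061, -) was at 41.9 and 27.2 CPM in SRF-OE and at 48.2, 70.1 and 81.1 CPM in GFP. Again SRF-OE was below GFP in every library, with GFP replicate 1 next to SRF-OE. The means were 34.6 ± 10.4 CPM (SD, n = 2) and 66.4 ± 16.7 CPM (SD, n = 3), with a log2 fold change of -0.94 (SE 0.28, adjusted p = 0.353, edgeR) over 5 libraries and -1.12 (SE 0.23, adjusted p = 0.0565, edgeR) over 4. The proportions of these genes within a library overlapped between the groups. Per gene length, the ratio of Kcnip2 to Kcnd2 was 11.3 and 12.6 in SRF-OE and 12.8, 11.4 and 10.9 in GFP. The ratio of Kcnd2 to Kcnd3 was 7.84 and 6.03 in SRF-OE and 5.45, 7.80 and 5.77 in GFP.

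The delayed rectifier genes had the smallest differences of the potassium channel genes, and their groups overlapped. Kcnq1 (chromosome 7, 143106362 to 143427042, +), the pore gene of the slow current, was at 61.4 and 47.2 CPM in SRF-OE and at 59.5, 87.1 and 77.0 CPM in GFP. SRF-OE replicate 2 was above GFP replicate 1. The means were 54.3 ± 10.0 CPM (SD, n = 2) and 74.6 ± 14.0 CPM (SD, n = 3), and the log2 fold change was -0.46 (SE 0.20, adjusted p = 0.371, edgeR) over 5 libraries and -0.59 (SE 0.17, adjusted p = 0.0901, edgeR) over 4.

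Kcnq1 shares 121 bp of exon, 3.0% of its exons, with Kcnq1ot1, an imprinted antisense RNA read from the other strand. Kcnq1ot1 was at 84.2 and 88.3 CPM in SRF-OE and at 57.4, 29.1 and 41.7 CPM in GFP, so the groups did not overlap and SRF-OE was the higher. Its log2 fold change was 1.01 (SE 0.27, adjusted p = 0.353, edgeR) over 5 libraries and 1.30 (SE 0.20, adjusted p = 0.0473, edgeR) over 4. The library kit does not mark strand, so reads from the shared bases cannot be given to either gene. Kcnq1ot1 (143203458 to 143296549, -) is annotated as 1 exon block inside the span of Kcnq1. Reads of unspliced Kcnq1 RNA from that stretch would therefore also count as Kcnq1ot1, and their part was not tested. The direction of the Kcnq1ot1 counts is opposite to that of Kcnq1.

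Kcnh2 (chromosome 5, 24319589 to 24351604, -), the pore gene of the rapid current, was at 115 and 76.6 CPM in SRF-OE and at 102, 180 and 159 CPM in GFP. As for Kcnq1, GFP replicate 1 lay between both SRF-OE libraries. The means were 95.9 ± 27.4 CPM (SD, n = 2) and 147 ± 40.6 CPM (SD, n = 3), and the log2 fold change was -0.62 (SE 0.29, adjusted p = 0.379, edgeR) over 5 libraries and -0.82 (SE 0.21, adjusted p = 0.0755, edgeR) over 4. Leaving out any one library kept all 8 log2 fold changes negative. They ranged from -1.99 to -1.03 for Hcn4 and from -0.66 to -0.29 for Kcnq1. With 2 libraries against 3, the smallest p of an exact permutation test of 1 gene is 0.1, and for 2 against 2 it is 0.333.

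**Figure D2:**
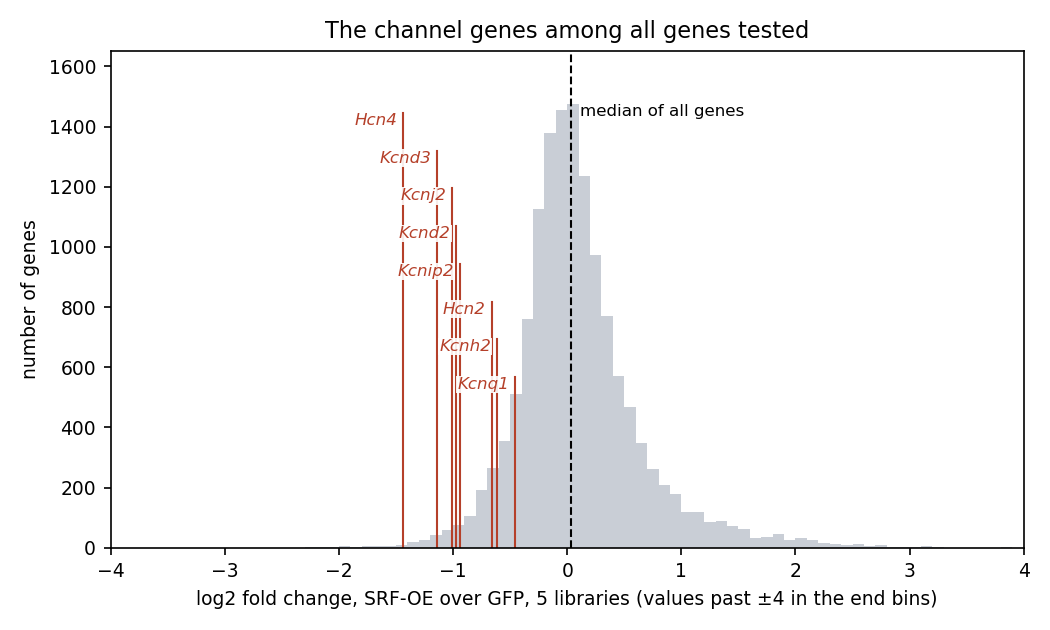
Number of genes (vertical axis) by log2 fold change of SRF-OE over GFP (horizontal axis) for all 13754 genes tested in the 5 libraries, with the channel genes as red lines and the median of all genes dashed. The 8 genes lie between -1.44 (Hcn4) and -0.46 (Kcnq1), left of the median of 0.030.

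CM marker genes summed to a lower TMM-scaled CPM in SRF-OE, so the channel genes were also read against them. Such CPM are not shares of raw reads. The TMM factors were 1.09 and 1.07 in SRF-OE and 1.01, 0.942 and 0.897 in GFP, so the order of libraries by raw share can differ. The 7 CM markers (among them Myh6, Tnnt2 and Ryr2) summed to 73443 and 72243 CPM in SRF-OE and to 75950, 89933 and 108070 CPM in GFP, and 6 of 7 had a negative log2 fold change, with a median of -0.41. Myh6 was the largest part of each sum, at 40537 and 44087 CPM in SRF-OE and 43611, 56916 and 68849 CPM in GFP. The study calls Myh6 a direct SRF target and reports lower myofibril genes with SRF overexpression. The markers may therefore themselves follow SRF, which was not tested. With libraries scaled on the summed counts of these markers, an alternative chosen after seeing the data, the 8 genes were still lower in SRF-OE, by log2 fold changes from -1.11 (Hcn4) to -0.14 (Kcnq1) over 5 libraries. That scaling moved the median of all genes tested from 0.030 to 0.32 over 5 libraries and from 0.035 to 0.46 over 4. Over 5 libraries 0 of 8 genes passed the adjusted cutoff in edgeR and 3 had an unadjusted p below 0.05, where 0.669% of all genes were lower. Over 4 libraries, 4 of 8 passed it: Hcn4 (adjusted p = 0.0214, edgeR), Kcnj2 (adjusted p = 0.0175, edgeR), Kcnd2 (adjusted p = 0.0294, edgeR) and Kcnip2 (adjusted p = 0.0356, edgeR). Under that scaling 3348 of 13397 genes passed, of which 127 were lower, 0.948% of all genes.

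**Figure D3:**
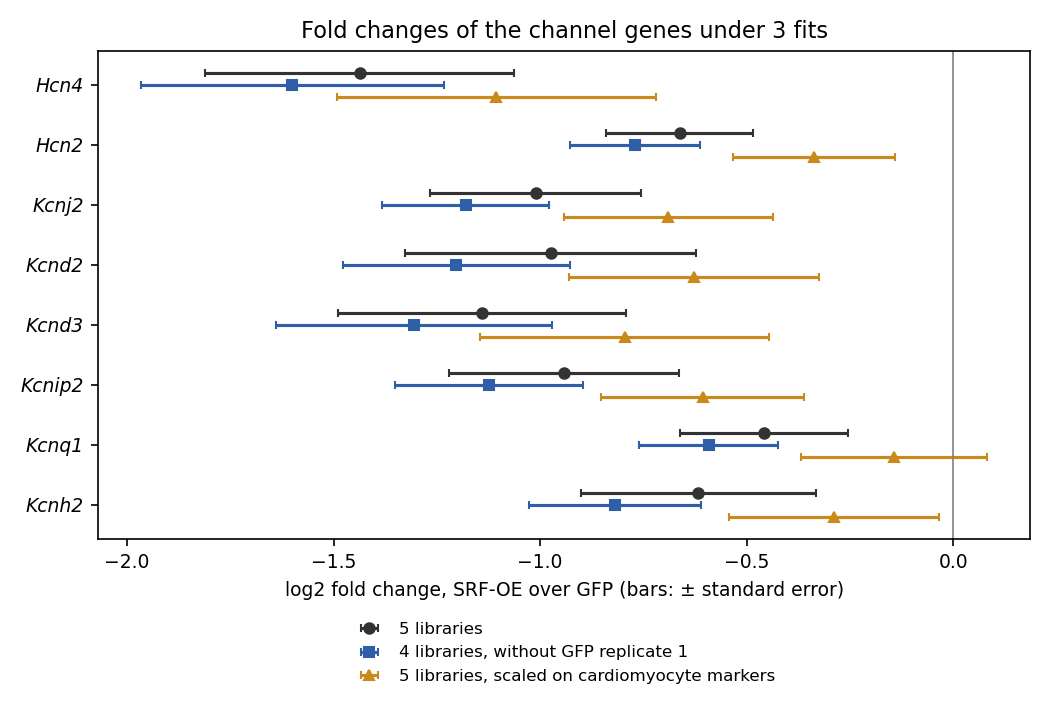
Log2 fold change of SRF-OE over GFP (horizontal axis, bars ± SE) of each channel gene in 3 edgeR fits: 5 libraries, 4 libraries without GFP replicate 1, and 5 libraries scaled on CM markers. All points lie left of 0, and the marker-scaled point lies nearest to 0 for every gene.

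Most markers of other cells had positive log2 fold changes over 5 libraries, but 0 of the markers below passed the adjusted cutoff in that edgeR fit. DESeq2 on the 5 libraries gave an adjusted p to only 2 atrial and 1 fibroblast markers, and 0 of these passed. At an unadjusted p below 0.05, 5 fibroblast, 1 smooth muscle or pericyte and 1 leukocyte marker were higher in edgeR over 5 libraries. Over 4 libraries 1 fibroblast and 1 leukocyte marker passed the adjusted cutoff in edgeR, both higher, where 1.98% of 13397 genes were higher. At an unadjusted p below 0.05 over 4 libraries, 7 fibroblast, 4 smooth muscle or pericyte, 2 leukocyte and 1 endothelial marker were higher. Atrial markers (Nppa, Myl4, Myl7, Sln and Bmp10) summed to 2358 and 2393 CPM in SRF-OE and to 915, 1704 and 185 CPM in GFP replicates 1, 2 and 3. Their median log2 fold change was 1.27, with 0 of 5 negative over 5 libraries and 1 of 5 (Sln) over 4. Nppa, which the study also uses as a cardiac stress marker, was the largest part of each sum. It was at 1641 and 1910 CPM in SRF-OE and at 683, 1196 and 177 CPM in GFP. Sln and Bmp10 were highest in replicate 2 of both groups. Hcn4 was highest in GFP replicate 3, the library with the lowest atrial sum. The 9 endothelial markers summed to 824 and 319 CPM in SRF-OE and to 638, 344 and 331 CPM in GFP (0 of 9 negative), with the lowest sum in SRF-OE replicate 3. The 8 fibroblast markers summed to 821 and 422 CPM in SRF-OE and to 441, 356 and 307 CPM (0 of 8 negative). The 6 smooth muscle and pericyte markers summed to 305 and 314 CPM and to 318, 135 and 170 CPM, with 0 of 6 negative and the highest sum in GFP replicate 1. The 5 leukocyte markers summed to 31.9 and 15.8 CPM in SRF-OE and to 20.4, 12.2 and 9.79 CPM in GFP, with 1 of 5 negative. Glial and neuronal markers, with 2 of 6 tested, summed to no more than 5.03 CPM in any library. The part of these cells in the channel values was not tested, and in bulk samples fewer CMs and less channel RNA per CM cannot be told apart.

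Nodal markers had no common direction. Of 12 nodal markers 9 were tested, 5 had a negative log2 fold change, and the median was -0.068 over 5 libraries and -0.19 over 4, and 0.20 over 5 with CM marker scaling. The factors Shox2 and Isl1, which define sinoatrial node cells, were at no more than 0.158 and 0.694 CPM in any library. Only Gjd3, a connexin of the conduction system, passed the cutoff, without GFP replicate 1 (log2 fold change 3.10, adjusted p = 0.0473, edgeR). Over 5 libraries its log2 fold change was 1.43 (SE 0.88, adjusted p = 0.460, edgeR). Its level in GFP replicate 1, 7.27 CPM, was above that in SRF-OE replicate 2, 5.49 CPM.

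Per gene length (RPKM, the CPM divided by the deposited length in kb), the 8 genes had the same order in 5 of 5 libraries. Kcnip2 was highest, from 33.5 to 99.7, followed by Kcnh2 from 18.1 to 42.7, Kcnq1 from 15.6 to 28.8 and Hcn2 from 12.4 to 25.0. Kcnj2 followed from 5.99 to 17.8, Kcnd2 from 2.66 to 9.13, Hcn4 from 0.599 to 2.93 and Kcnd3 from 0.442 to 1.58. The ranges over libraries overlapped for each pair of neighbours, so that the order held within a library although neighbouring ranges did not separate. The deposited length of Kcnip2, 813 bp, is 23.4% of its 3476 bp of annotated exons, against 62.1% to 100.1% for the other genes, so its level per length could be overstated.

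**Figure D4:**
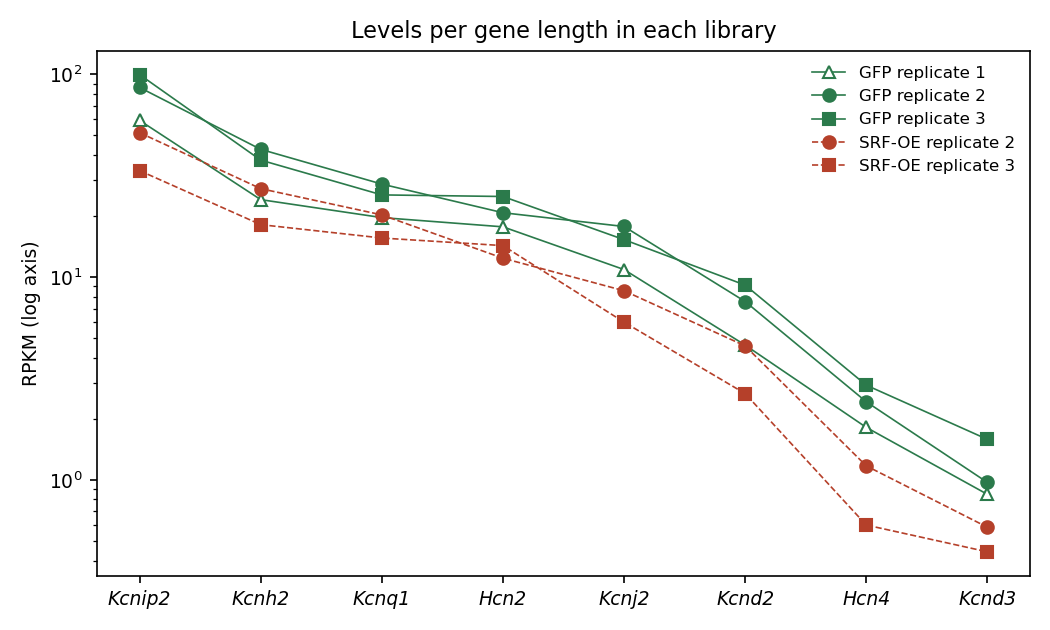
Level per gene length of the 8 channel genes (horizontal axis, ordered by mean) in RPKM (log vertical axis), with 1 line per library. The lines fall from Kcnip2 (33.5 to 99.7) to Kcnd3 (0.442 to 1.58), and each line falls at every step.

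The 3 genes whose centred log2 CPM over the 5 libraries was nearest to that of Hcn4, among 8523 genes of at least 10 CPM, were Trim72, Whrn and C130080G10Rik, with root mean square differences of 0.142, 0.174 and 0.186. For Kcnd3, the next largest fold change, they were Epb4.1l3, Ckmt2 and Fam13a, with 0.0934, 0.125 and 0.130. Trim72 encodes a membrane repair protein of striated muscle and Ckmt2 the sarcomeric mitochondrial creatine kinase. Trim72 was at 24.6 and 15.2 CPM in SRF-OE and at 37.9, 45.6 and 60.6 CPM in GFP.

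Among other cardiac potassium channel pore genes, 15 of 17 were tested, 10 had a negative log2 fold change over 5 libraries, and the median was -0.50. With libraries scaled on CM markers, 8 of the 15 were negative. At an unadjusted p below 0.05, 4 were lower and 1 higher. Over 4 libraries the counts were 8 and 3, and 1 gene passed the adjusted cutoff. That gene was Kcnj12, the Kir2.2 inward rectifier, at 27.2 and 24.0 CPM in SRF-OE and at 31.7, 46.0 and 51.8 CPM in GFP. It had a log2 fold change of -0.75 (SE 0.23, adjusted p = 0.353, edgeR) over 5 libraries and fell by 0.93 (SE 0.15, adjusted p = 0.0473, edgeR) over 4. As for Kcnj2, its GFP replicate 1 value lay next to SRF-OE, but its highest GFP library was replicate 3, not replicate 2. Kcnk3, the TASK-1 background channel, was at 239 and 202 CPM in SRF-OE and at 257, 321 and 388 CPM in GFP (log2 fold change -0.55). Kcnj5, a pore of the acetylcholine-activated channel, was at 106 and 50.9 CPM in SRF-OE and at 94.8, 213 and 167 CPM in GFP (log2 fold change -1.01). Kcnj4, a Kir2.3 inward rectifier, went the other way, with 10 and 68 reads in SRF-OE and 20, 1 and 0 reads in GFP, too few in GFP for a fold.

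Sodium channel genes carry or modify the upstroke current. Of 12 listed, 10 were tested over 5 libraries, 5 had a negative log2 fold change, and the median was -0.15. With CM marker scaling 5 of 10 were negative and the median was 0.17. Over 4 libraries, 1 gene was lower and 1 higher past the adjusted cutoff, and 3 were lower and 2 higher at an unadjusted p below 0.05. Scn4b, an accessory subunit, was at 28.5 and 92.4 CPM in SRF-OE and at 90.5, 2.75 and 5.45 CPM in GFP. Over 5 libraries its log2 fold change was 0.87 (SE 1.33, adjusted p = 0.769, edgeR). GFP replicate 1 was at the level of SRF-OE replicate 3, and without it Scn4b rose by 3.94 (SE 0.65, adjusted p = 0.0484, edgeR). Fgf13, which binds the sodium channel, had a log2 fold change of -0.56 and Scn10a, a neuronal pore gene, one of 1.05, both over 5 libraries and neither past the cutoff.

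Of 15 auxiliary subunit genes of potassium channels 10 were tested, 5 had a negative log2 fold change over 5 libraries, and the median was -0.089, which became 0.23 with CM marker scaling. Abcc9, the sulfonylurea receptor of the ventricular ATP-sensitive channel, was at -0.37, Kcne1, the partner of Kcnq1, at -0.51 and Kcnip3 at 1.02 on the log2 fold change scale. Kcne1 overlapped between the groups, at 317 and 114 CPM in SRF-OE and at 135, 456 and 328 CPM in GFP. Kcnip3 was at no more than 0.694 CPM in any library. None of these auxiliary genes passed the adjusted cutoff in either fit (edgeR), and at an unadjusted p below 0.05 over 5 libraries 1 was lower and 1 higher. Scaffold genes, which place channels in the membrane, had a median of 0.018, with 2 of 6 negative. Cav3 was at 0.029 and Ank2 at -0.35 on that scale. Of the other HCN genes, 2 of 3 were tested and 0 of those 2 had a negative log2 fold change over 5 libraries. The HCN partner gene Pex5l was at 0.52, at no more than 1.05 CPM in any library.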

How the data were processed

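RNA-seq counts of GFP+ CMs at P14 were taken for 2 SRF-OE and 3 GFP libraries. Per the labels and the methods of the study, SMART-Seq libraries were sequenced, aligned to mm10 with STAR 2.5.3a and counted per gene with featureCounts (Subread 1.5.2, from the submitters' processing notes). The authors deposited these raw counts without normalization. The deposited column headed SRF-OE replicate 1 holds gene lengths in bp and was used only as length, for reads per kb. Settings for strand and multiply mapped reads are not given in the sources used here. The 8 genes and all lists were chosen with earlier results of these data known.

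Counts were tested with edgeR 4.0.16 in R 4.3.3 (filterByExpr, TMM, glmQLFit, glmQLFTest), with Benjamini-Hochberg adjustment over all genes tested and a cutoff of 0.05. The test was fixed for 3 libraries per group and could use 5 libraries. The SE is the log2 fold change divided by the square root of F. Alternatives were DESeq2 1.42.0, other scalings, other filters on low counts (none, or a minimum of 10 counts per library), a block for replicate number, and the omission of single libraries. Fits were tested on simulated data, where they recovered the fold changes but the share of false calls was on average above the cutoff, more so with DESeq2 and with the block, so that adjusted p-values near the cutoff may be too small. The sex of the tissue was read from Xist (over 10 CPM). Depth was 14137433 to 23159631 reads per library.

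Genes named outside the 8 were Srf, genes whose exons overlap a member's, and, in each comparison list, those past the cutoff, the 2 of highest mean CPM and the 1 of largest fold change. The 3 nearest genes in pattern were also named. Some genes that this rule names are not reported here. Xist, Ddx3y and single markers were named after their values were seen. Positions are from GENCODE M21 (GRCm38), and windows from RefSeq.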

Additional observations from a re-analysis of the deposited data

How the results depend on the processing

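The 8 log2 fold changes were negative in each of the 14 other fits that started from the 5 libraries, and 0 changed direction. Some of those fits left libraries out, and the one without GFP replicate 1 is the main fit of the 4 libraries. The 8 were also negative in the 6 other fits of the 4. Of 21566 genes, DESeq2 called 11 higher and 213 lower over 5 libraries, after giving an adjusted p to 1167, and called 1 list gene. With the replicate block 582 of 13754 genes were higher and 432 lower. There 6 of the 8 genes and 9 list genes (among them Kcnj12, Kcnj5 and Irx4) passed. GFP replicate 1 is the only library of its number, so the block takes it out of the comparison of SRF-OE with GFP. That fit therefore rests on replicates 2 and 3 only and gives no result that keeps GFP replicate 1. Leaving out one library gave 0 to 265 genes higher, 0 to 130 lower, 0 to 1 of the 8 genes and 0 to 3 list genes, and calls came only without GFP replicate 1. Where an SRF-OE library was left out, the other one was assumed to vary like the GFP libraries. Without GFP replicate 1, 395 genes passed. DESeq2 gave 1685 genes with 8 of the 8, upper quartile scaling 97 with 0, the replicate block 939 with 5, and, added after seeing the data, marker scaling 3348 with 4 and no filter on low counts 2963 with 8. The cause of these differences was not tested. Across genes, the correlation between libraries of the same number, each taken as its deviation from the mean of its group, was 0.41 for number 2 and -0.086 for number 3 over 5 libraries and 0.22 over 4, and genes are not independent replicates. With fewer than 3 pairs, the libraries share only a number, which in both groups also follows sex. For Kcnj2 in 4 libraries, the call at the cutoff was lost with upper quartile scaling. Depth limits Hcn4 and Kcnd3 most, with 52 and 73 reads in their lowest libraries.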

Other observations

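Transcription factors known to set channel gene expression gave no call over either set of libraries (edgeR, adjusted p under 0.05). Of 12 listed, 10 were tested and 7 had a negative log2 fold change over 5 libraries, with a median of -0.27. With CM marker scaling 5 of 10 were negative and the median was 0.028. At an unadjusted p below 0.05 there were 0 over 5 libraries, and over 4 there was 1 lower and 0 higher. Irx4, a ventricular identity factor, was at 47.0 and 22.5 CPM in SRF-OE and at 40.5, 72.9 and 78.9 CPM in GFP, a log2 fold change of -0.88 (SE 0.40, adjusted p = 0.371, edgeR) over 5 libraries and -1.12 (SE 0.33, adjusted p = 0.0963, edgeR) over 4. Its SRF-OE replicate 2 value was above GFP replicate 1, as for Kcnq1 and Kcnh2. Nkx2-5, a cardiac lineage factor, was at 63.5 and 66.6 CPM in SRF-OE and at 72.0, 72.9 and 75.1 CPM in GFP, a log2 fold change of -0.17. Within the libraries with Xist, SRF-OE replicate 2 minus GFP replicate 2 was -1.05 for Hcn4 and -0.50 for Kcnq1 in log2 CPM, and SRF-OE replicate 3 minus GFP replicate 3 was -2.29 and -0.71.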
